A study of Mus musculus with 54 samples.

Results

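The comparison described here is that of high-fat diet with normal chow in mouse aorta, averaged over 2 inbred strains and 4 times on diet. It rests on 48 of the 54 arrays of the study: 24 from mice on the high-fat diet (HF) and 24 from mice on normal chow (NC). Arrays were taken by their titles, which give strain, week, diet and a replicate number. The 6 baseline arrays of week 0 have no high-fat counterpart and did not enter the tests. The strains were C57Bl/6 (C57) and C3H/HeJ (C3H), and the titles give 4, 8, 24 or 40 weeks on diet, so that each combination of strain, week and diet, 16 in all, had 3 arrays. The source field lists 10 weeks in place of 8, and the titles were followed. Every array carried total RNA of aorta in one channel and total RNA of mouse embryo, one common reference, in the other. Age at the start of the diet, sex, the make-up of the diets and whether a sample was 1 aorta or a pool were not given in the sources used here. P-values thus reflect the spread among the arrays of a group that remains after the replicate number is fitted, and that spread may be technical.

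The aorta is the largest artery, with an inner lining of endothelium, a middle layer of smooth muscle and an outer coat of connective tissue that adjoins fat. In mice a diet rich in fat and cholesterol raises blood lipids, and lipid-laden macrophages can collect under the endothelium as fatty streaks, the first stage of atherosclerosis. C57Bl/6 is the classic strain that forms such streaks on an atherogenic diet, and C3H/HeJ the classic strain that resists them. The averaged comparison asks which features differ with diet in the mean over both strains, and the comparisons of strains and of weeks ask for which features the average stands.

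Values are deposited log ratios of the 2 channels for 21446 array features, of which 21179 were tested. Log10 is the likely base only, because the values stop at exactly 2 and -2, and the direction of the ratio is not given in the sources used here. "Higher" and "lower" thus mean a higher or lower deposited ratio on the high-fat diet, and with a ratio of embryo over aorta every sign below would turn. Folds are given for base 10 and hold only if that base is right. Features carry numbers and no gene names: 17268 features have 1 symbol in the platform annotation, but in 3072 feature pairs that share a symbol the correlation of the mean ratios was -0.0121, so that the names were not used. The aorta label could for the same reason not be checked against markers of smooth muscle, endothelium, macrophages or fat. In whole tissue, fewer cells of a type and less RNA per cell cannot be told apart.

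The SD of the log ratio over features was 0.266 on the median array, and 5 arrays stood apart with an SD under 0.2, the lowest being 0.160, while the others had 0.225 or more. Of these, C57 chow held replicate number 3 of weeks 4 and 24, number 2 of week 8 and number 1 of week 40. The last was C3H high-fat number 2 of week 4, so small spread fell unevenly on strain and diet. Arrays that share a replicate number also shared deviations: across 24 pairs of a high-fat and a chow array of the same strain, week and number, the deviations from the group means had a median correlation of 0.413, and those of 48 pairs of different numbers one of -0.233. The deviations of 3 arrays sum to 0, so that the second value largely follows from the first and is no separate reading. The number was a term of the model, as one effect with 3 levels common to all strains and weeks. Deviations shared only by the same number within one strain and week were not fitted. Arrays of one strain, diet and number at the 4 weeks are called a series below, which gives 12 series. Whether a number stands for a batch, a slide or a day is not given in the sources used here.

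Differences between the diets that had one sign in both strains were mostly small. In the averaged comparison 292 features passed the test (limma, adjusted p under 0.05), which is 1.38% of those tested, 185 of them higher (0.874%) and 107 lower (0.505%). Of these, 284 had the same sign in both strains (1.34%): 178 were higher on the high-fat diet (0.84%) and 106 were lower (0.5%). Without adjustment 3114 features (14.7%) had a p under 0.05. Over all tested features the strains shared a sign in 9981, or 47.1%. The difference of the 178 higher features had a median of 0.0754 and ran from 0.0342 to 0.342, with 47 over 0.1 and 10 over 0.2. That of the 106 lower features had a median of -0.0768 and ran from -0.0321 to -0.220, with 31 past -0.1. The median absolute difference over all features was 0.0171. No feature separated all 24 high-fat from all 24 chow arrays (0 of 21179, 0%). The same fit without the replicate number called 29 features, 28 of them among the 284.

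**Figure D1:**
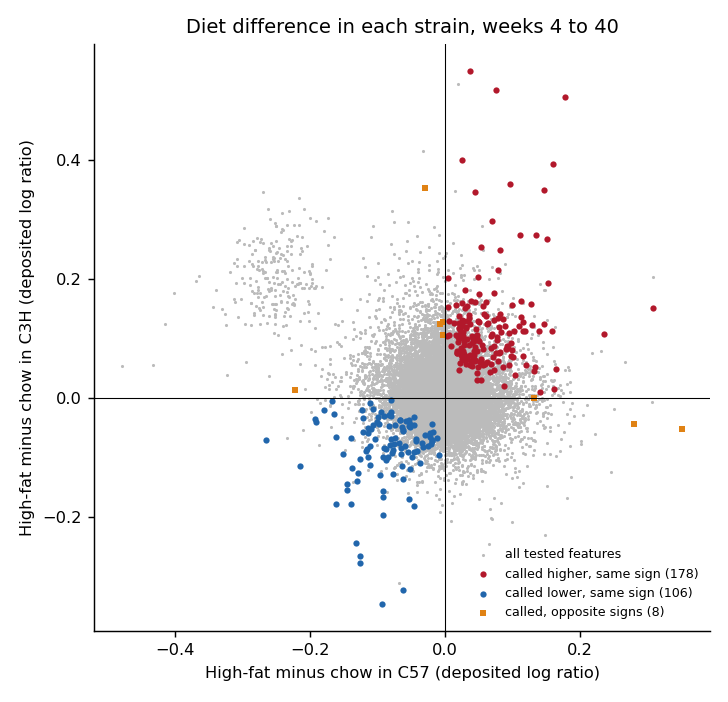
Diet difference (high-fat minus chow, deposited log ratio) in C57 on the horizontal and in C3H on the vertical axis, 1 point per tested feature. The 178 higher features lie mostly above the diagonal, with a median of 0.0494 in C57 and 0.104 in C3H, while the 106 lower features have medians of -0.0820 and -0.0742, and 8 called features have opposite signs.

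The plot of the strains shows a difference between the higher and the lower features. Among the 178 higher features the difference was larger in C3H for 137 and larger in C57 for 41, and 129 passed the test within C3H and 13 within C57, 3 of them in both (limma, adjusted). Among the 106 lower features it was larger in C57 for 56 and in C3H for 50, with 47 passing within C3H and 31 within C57, 3 of them in both. Over all features the diet difference passed in 89 features in C57 (0.42%), 34 of them higher (0.161%), and in 707 in C3H (3.34%), 532 of them higher (2.51%). A second group of features is visible at the upper left of the plot, with 232 features under -0.15 in C57 and over 0.1 in C3H. None of these 232 passed the averaged test or the test of the strain difference, and their median SE was 0.110, against 0.0177 over all features. Their mean ratios had a median of -0.766 and ran from -1.37 to 0.0682. The bounds were chosen after the plot was seen.

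The largest higher feature was feature 4058, a feature with a high ratio everywhere. In C57 it lay at 0.718 to 1.61 on chow (median 1.16) and at 1.06 to 1.73 on the high-fat diet (median 1.39). In C3H it lay at 0.680 to 1.28 on chow (median 0.942) and at 0.743 to 1.78 on the high-fat diet (median 1.499). The ranges overlapped in both strains, in C3H through 2 high-fat arrays numbered 1, at 0.743 (week 8) and 1.15 (week 24). The averaged difference was 0.342 ± 0.0637 (SE, 24 arrays each), or 2.20-fold at base 10, with an adjusted p of 0.00322 (limma), and 20 of 24 pairs of arrays with the same strain, week and number were higher on the high-fat diet. It did not pass in the fit with arrays scaled to one spread.

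Feature 1212 was the clearest case of a difference carried by C3H. On chow its C3H arrays ran from 0.113 to 0.734 (median 0.345) and on the high-fat diet from 0.741 to 1.18 (median 0.848), so that the 12 high-fat and 12 chow arrays did not overlap. In C57 chow gave -0.0498 to 0.724 (median 0.323) and high-fat 0.134 to 0.657 (median 0.416), so that the ranges overlapped. The averaged difference of 0.297 ± 0.0391 (SE; 1.98-fold at base 10; limma adjusted p = 7.6e-05) therefore stands for 0.518 in C3H and 0.0765 in C57. Such separation of all 12 against 12 arrays was found for 2 of 21179 features in C3H (0.00944%) and for 0 in C57 (0%). The 2 were features 1212 and 9938, both among the 178. Feature 6324, a feature with a low ratio, had the same form. Its C3H arrays ran from -1.43 to -0.880 on chow (median -1.08) and from -0.949 to -0.0169 on the high-fat diet (median -0.615). In C57 the medians were -0.876 on chow and -0.915 on the high-fat diet. The averaged difference was 0.294 ± 0.0463 (limma adjusted p = 0.000609), made of 0.550 in C3H and 0.0376 in C57. The C3H high-fat mean of feature 6324 lay at -0.591, -0.702 and -0.809 at weeks 4, 8 and 24 and at -0.164 at week 40, while the chow means stayed between -1.17 and -1.04.

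**Figure D2:**
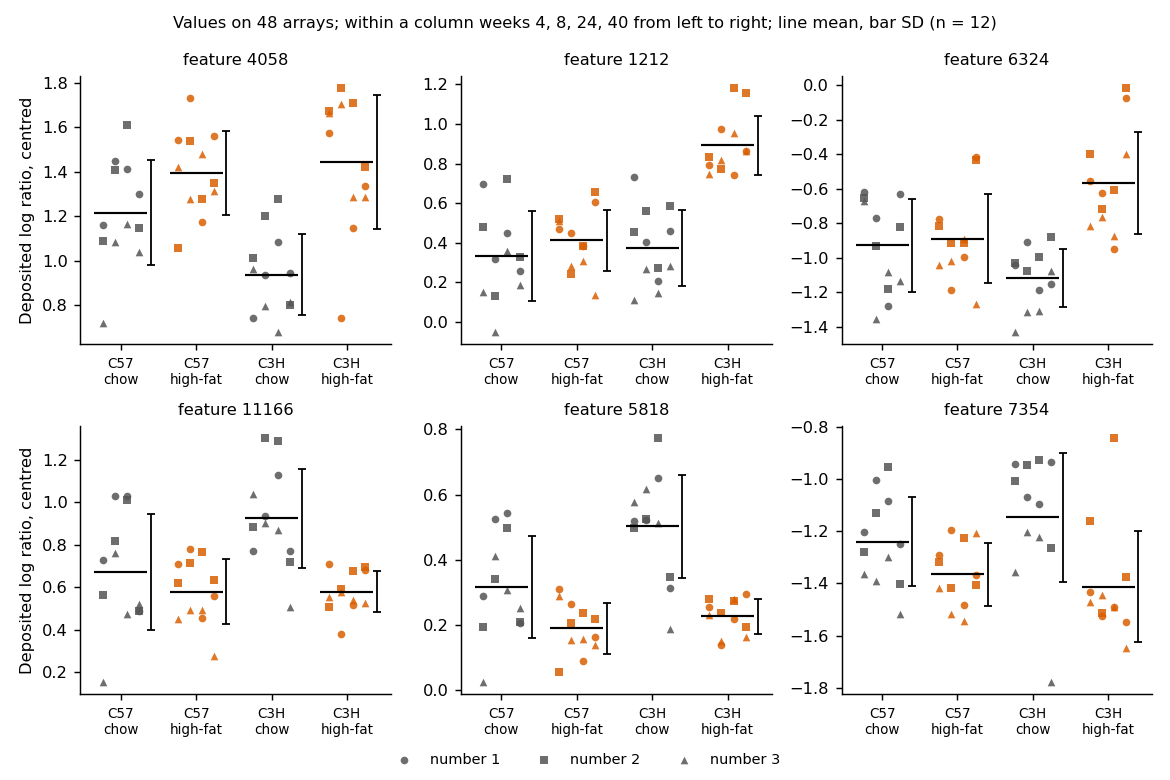
Centred deposited log ratio on each of the 48 arrays for the 3 largest higher features (top) and the 3 largest lower features (bottom), by strain and diet, with the mean as a line and the SD as a bar (n = 12 arrays). Feature 1212 shows C3H high-fat arrays at 0.741 to 1.18 above all C3H chow arrays, and feature 5818 shows high-fat arrays between 0.0569 and 0.311 in both strains while chow arrays reach 0.772.

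Features 11842, 7103 and 7345 moved together over the arrays. After the groups and the replicate number were taken out, the residuals of 11842 and 7345 correlated at 0.894 and those of 11842 and 7103 at 0.819 over 48 arrays, which share their RNA and reference. Feature 11842 ran from -1.14 to -0.211 on the 24 chow arrays (median -0.718) and from -1.04 to 0.128 on the high-fat arrays (median -0.375). Its difference was 0.277 ± 0.0372 (limma adjusted p = 7.6e-05). It was largest at week 40: 0.150, 0.0507, 0.286 and 0.621 in the order of the weeks. In C57 it was 0.0197, -0.167, 0.137 and 0.653, and in C3H 0.281, 0.268, 0.436 and 0.588. The group means at week 40 were -0.0619 in C57 and -0.0833 in C3H on the high-fat diet against -0.715 and -0.672 on chow. Feature 7103 lay lower, at -1.99 to -0.794 on chow and -1.61 to -0.458 on the high-fat diet, with a difference of 0.249 ± 0.0359. Its differences over the weeks were -0.00713, -0.213, 0.178 and 0.632 in C57 and between 0.312 and 0.387 in C3H. Feature 7345 had a difference of 0.228 ± 0.0361, of which C57 gave 0.0962 and C3H 0.360. A second pair, features 1212 and 13437, had residuals that correlated at 0.867.

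Feature 4912 was the exception to the pattern of C3H among the 12 largest higher features. In C57 its chow arrays ran from -0.0375 to 0.362 (median 0.1997) and its high-fat arrays from 0.0461 to 0.675 (median 0.528). In C3H they ran from 0.0959 to 0.569 (median 0.324) on chow and from 0.131 to 0.795 (median 0.416) on the high-fat diet. The difference was 0.230 ± 0.0344 (1.70-fold at base 10; limma adjusted p = 0.000357), with 0.309 in C57 and 0.151 in C3H, and 21 of 24 pairs were higher. The C57 high-fat means were 0.591, 0.581 and 0.520 at weeks 4, 8 and 24 and 0.244 at week 40. Chow means in C57 stayed between 0.121 and 0.252 at these weeks.

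Features 12451 and 20382 had 22 of 24 pairs higher on the high-fat diet, the most among the 12 named higher features; over the 178 the number ran from 14 to 23. Feature 12451 ran from 0.418 to 0.805 on chow (median 0.601) and from 0.452 to 1.14 on the high-fat diet (median 0.814), and it was higher in all 8 combinations of strain and week. Its difference was 0.204 ± 0.0312 (limma adjusted p = 0.000457), but it did not pass with arrays scaled to one spread. Feature 20382 ran from -1.38 to -0.523 on chow (median -1.02) and from -1.17 to -0.279 on the high-fat diet (median -0.782), a difference of 0.209 ± 0.0428. Feature 9938 was at -0.333 to 0.0372 on chow and 0.0686 to 0.359 on the high-fat diet in C3H, and in C57 its highest high-fat array, number 3 of week 40, was at 0.847. Feature 1646 rested on few arrays: its C3H high-fat arrays had a median of 0.00491 and reached 0.719 at week 24 in number 1 and 0.992 at week 40 in number 2. Its difference of 0.212 ± 0.0545 had an adjusted p of 0.0421 (limma), and it passed under 36 of 83 other settings.

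In 3 of the lower features, 5818, 11166 and 8152, the C3H chow means of weeks 4, 8 and 24 lay above the week 0 mean while the high-fat means stayed closer to it. Feature 5818 had the smallest p of all features. Its 24 chow arrays ran from 0.0245 to 0.772 (median 0.455) and its 24 high-fat arrays from 0.0569 to 0.311 (median 0.218). In C3H the chow means were 0.531, 0.555 and 0.645 at weeks 4, 8 and 24 and 0.282 at week 40, and the high-fat means were 0.255, 0.176, 0.258 and 0.217. The week 0 mean in C3H was 0.253 (n = 3). In C57 the chow means were 0.169, 0.426, 0.449 and 0.222, the high-fat means between 0.162 and 0.219, and the week 0 mean 0.298. The averaged difference was -0.201 ± 0.0229 (1.59-fold at base 10; limma adjusted p = 7.61e-06), lower in 21 of 24 pairs.

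Feature 11166, the largest lower feature, had the same form in C3H. On chow it ran from 0.152 to 1.30 (median 0.793) and on the high-fat diet from 0.274 to 0.778 (median 0.567), so the high-fat arrays lay within the chow range. The SD was 0.280 over the chow arrays and 0.125 over the high-fat arrays. In C3H the chow means were 0.897, 1.04, 1.09 and 0.664 over the weeks and the high-fat means between 0.516 and 0.633, with 0.518 at week 0. The averaged difference was -0.220 ± 0.0400 (limma adjusted p = 0.00263), with -0.346 in C3H and -0.0933 in C57. Features 8152 and 9052, whose residuals correlated at 0.827, followed it: 8152 had a difference of -0.192 ± 0.0384 and C3H chow means of 0.809, 0.670, 0.921 and 0.302 against high-fat means between 0.270 and 0.443, with 0.374 at week 0. Feature 19031 differed by -0.188 ± 0.0365 and feature 17162 by -0.1502 ± 0.0314, and both had the opposite sign at week 40 (0.0616 and 0.107). In C57 the week 0 means of features 11166 and 8152 were 0.684 and 0.400. Their C57 chow means over the later weeks were 0.672 and 0.410 and their high-fat means 0.578 and 0.349. There the chow means thus lay closer to week 0. No test against week 0 was made.

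Feature 16357 was lower in each strain on its own. In C57 it lay at -0.0785 to 0.342 on chow (median 0.118) and at -0.432 to 0.126 on the high-fat diet (median -0.000837). In C3H it lay at -0.453 to 0.113 on chow (median -0.0831) and at -0.564 to -0.0713 on the high-fat diet (median -0.219). The ranges overlapped in both strains, yet 22 of 24 pairs of the same strain, week and number were lower on the high-fat diet. The difference was -0.161 in C57 and -0.178 in C3H, and -0.170 ± 0.0225 on average (1.48-fold at base 10; limma adjusted p = 7.6e-05). Feature 3015 was lower in all 8 combinations of strain and week, by -0.215 in C57 and -0.114 in C3H, with 24 chow arrays from -0.407 to 0.325 (median -0.124) and 24 high-fat arrays from -0.490 to -0.0614 (median -0.259). Feature 9169 was lower by -0.158 ± 0.0266 on average, with a difference of 0.000429 at week 40. Features 10890 and 18767 passed with an adjusted p of 0.0380 and 0.0440, under 43 and 29 of 84 other settings, and 18767 had 1 C57 high-fat array of week 40 at -0.890. Feature 7354 had 1 C3H chow array of week 40 at -1.78, below every high-fat array, and 1 C3H high-fat array of week 24 at -0.845, above every chow array, and passed under 65 of 84.

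**Figure D3:**
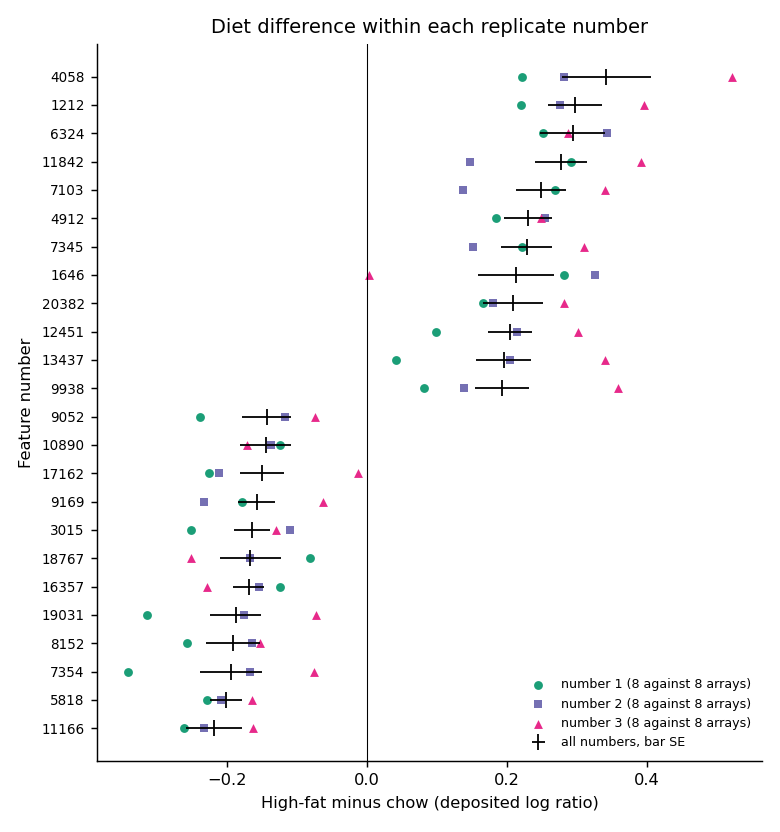
Difference between high-fat and chow arrays (deposited log ratio) within each replicate number for the 24 named features, with the averaged difference as a tick and its SE as a bar. All 24 keep their sign in all 3 numbers, and the spread between numbers is wide for feature 4058 (0.222, 0.282 and 0.522) and for feature 1646, which was 0.00264 in number 3.

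A few features passed the test of the diet difference within both strains. Of the 21179 tested features 9 did so, beside 89 that passed in C57 (0.42%) and 707 in C3H (3.34%). Among the 9, 6 had the same sign in both strains: features 8757, 11763 and 18816 were higher and features 1397, 11933 and 16357 lower. All but 16357 fall outside the rule for named features and were chosen after their values were seen. Feature 8757 had chow values of -0.0972 to 0.0453 in C57 and -0.127 to 0.0609 in C3H, and high-fat values of -0.0612 to 0.267 and -0.0925 to 0.179. Its difference was 0.103 in C57 and 0.112 in C3H (limma adjusted p = 0.0270 and 0.00661), and 22 of 24 pairs were higher. Feature 11763 differed by 0.0956 and 0.109 and feature 18816 by 0.147 and 0.124. On the lower side, feature 1397 differed by -0.114 and -0.0993 and feature 11933 by -0.126 and -0.103. The other 3 features that passed in each strain, 5037, 16807 and 20264, had opposite signs.

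Because the averaged test uses both strains, the sign in each strain was also read from the list called in the other strain. The diet differences of the strains rest on separate arrays where every array has a value. The calls do not, because the fit took its residual spread and the replicate number terms from the arrays of both strains. The lists are thus not fully independent of the strain in which the sign was read. Of the 89 features called in C57, 55 shared the sign of C3H (61.8%), and among the 707 of C3H, 402 shared that of C57 (56.9%), beside 47.1% of all features. Features lower in C57 were lower in C3H in 40 of 55 cases, with a median of -0.0180 there, and features higher in C57 were higher in C3H in 15 of 34. Features higher in C3H were higher in C57 in 314 of 532, with a median of 0.00592 there, and features lower in C3H were lower in C57 in 88 of 175. The medians in the other strain are thus small beside those in the strain that made the call, which were 0.107 for the 532 and -0.113 for the 55.

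A further reading split the same 48 arrays by replicate number. With numbers 1 and 2 alone, 48 features passed the averaged test, 12 higher and 36 lower, and 39 of them are among the 284. In the arrays numbered 3, which this fit did not use, 44 of the 48 kept their sign: 11 of 12 higher features, with a median of 0.139, and 33 of 36 lower ones, with a median of -0.0603. Over all features 55.8% had the same sign in number 3 as in numbers 1 and 2. All these arrays entered the averaged comparison, and features read on the same arrays are not separate cases. The 44 of 48 is thus a description and no replication. All 284 features had the same sign in each number, which the selection by their mean favours.

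**Figure D4:**
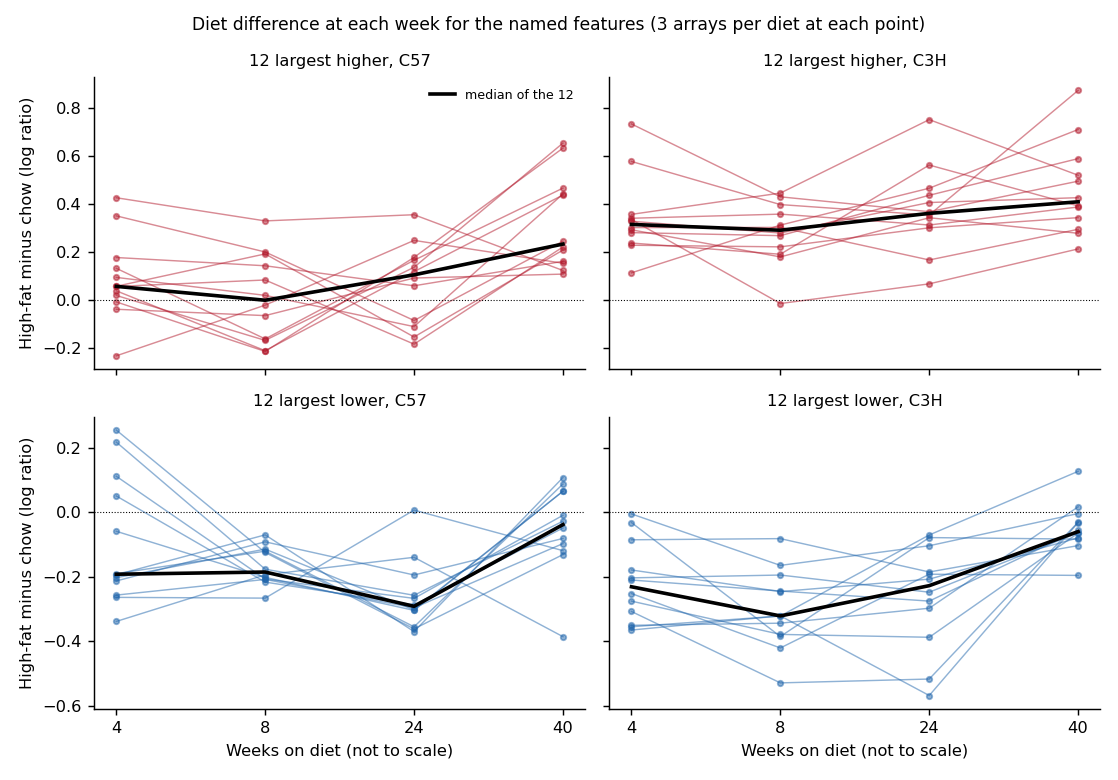
Difference between high-fat and chow arrays (deposited log ratio) at each week for the 12 largest higher (top) and 12 largest lower features (bottom) in each strain, with the median of the 12 in black and 3 arrays per diet at each point. Most of the higher features have their largest difference at week 40, where most of the lower features lie near 0. Feature 11842, one of the higher features, went from 0.150 to 0.621 over both strains.

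The higher and lower features had different courses over time. The 178 higher features had median differences of 0.0619, 0.0828, 0.0659 and 0.109 at weeks 4, 8, 24 and 40, and the difference was largest at week 40 in 85 and at week 8 in 70. The 106 lower features had medians of -0.0710, -0.126, -0.0734 and -0.0169, and the difference was largest at week 8 in 57 and at week 40 in 7. At week 40 the lower features kept their sign in 67 of 106, against 106 of 106 at weeks 8 and 24, while the higher features kept theirs in 170 of 178 at week 40. The sign held in all 4 weeks in 143 higher and 65 lower features, and in all 8 combinations of strain and week in 33 and 15; over all features these shares were 14.4% and 1.08%. These courses describe features chosen on the mean over the same weeks. Over all features the median difference was also lowest at week 8 and highest at week 40: 0.00364, -0.00766, 0.00172 and 0.0115. At week 8, 728 features passed as higher and 1597 as lower, and at week 40, 1208 and 175. The part of this shift in the courses of both lists was not tested.

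An F test asked whether the diet difference changed between weeks. It passed in 1720 features (8.12%; limma, adjusted), and among the same-sign features in 25 of the 178 higher and 32 of the 106 lower. Of the 24 named features it passed in 11842, 7103, 11166, 5818, 19031 and 17162. Among all features it called, 12418 and 583 had the largest rise from week 4 to week 40. Feature 12418 went from -0.365 to 0.152 and feature 583 from -0.0245 to 0.476. Features 17767 and 11677 had the largest fall, from 0.476 to -0.0121 and from 0.169 to -0.234. With arrays scaled to one spread the F test called 38 features, with quantile normalization 46 and without the replicate number 1. Leaving out single arrays of week 8 gave 688 (C57 high-fat number 2), 701 (C3H chow number 2), 874 (C57 chow number 1) and 1028 (C3H high-fat number 2). Leaving out number 2 of week 40 gave 711 (C3H high-fat), 739 (C57 chow) and 754 (C3H chow).

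At single weeks the counts were uneven, with 6 arrays on each diet. At week 4 the diet difference passed in 22 features (0.104%), 12 higher (0.0567%) and 10 lower (0.0472%), with 1192 (5.63%) at an unadjusted p under 0.05. At week 8 it passed in 2325 (11%), 728 higher (3.44%) and 1597 lower (7.54%), with 5857 (27.7%) unadjusted. At week 24 it passed in 5 (0.0236%), 0 of them higher (0%) and 5 lower (0.0236%), with 962 (4.54%) unadjusted. At week 40 it passed in 1383 (6.53%), 1208 higher (5.7%) and 175 lower (0.826%), with 4915 (23.2%) unadjusted. The median over all features moved with these counts, at 0.00364, -0.00766, 0.00172 and 0.0115. With quantile normalization the week 40 count was 56, and scaling gave 74. Without the 5 arrays whose SD was under 0.2 it was 896, and the part of their spread in the count was not tested.

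Single arrays moved the counts at single weeks by over 1.5 times. At week 40 the count was 231 without C3H high-fat number 2, 806 without its number 1 and 2462 without its number 3. It was 288 without C3H chow number 2 and 301 without C57 chow number 2. At week 8 it was 402 without C3H chow number 2, 441 without C57 high-fat number 2 and 1009 and 1340 without C57 chow numbers 1 and 3. Without C3H high-fat numbers 1 and 2 it was 1182 and 1212. At week 4 it was 7 without C57 high-fat number 1, 10 without C57 chow number 1 and 10 without its number 2. In C3H it was 11 and 14 without high-fat numbers 1 and 2, and 13 and 12 without chow numbers 2 and 3. At week 24 it lay between 1 and 13, and 18 of the 48 arrays moved it that far. Without the replicate number the counts were 2, 31, 1 and 8 at weeks 4, 8, 24 and 40.

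Of the 14 features with the largest differences among those that passed at a single week, 4 are among the 24 named above. The order below is among the features that passed at that week, and features that did not pass could differ by more: feature 4058 differed by 0.542 at week 4 (limma adjusted p = 0.113) and feature 11166 by -0.392 at week 24 (adjusted p = 0.0575). At week 4, features 17767 (0.476) and 4912 (0.380) were highest and features 12418 (-0.365) and 10004 (-0.332) lowest. At week 8, features 9290 (0.401) and 5967 (0.322) were highest and features 11166 (-0.368) and 9467 (-0.324) lowest. At week 24, features 8152 (-0.413) and 5818 (-0.338) had the largest lower differences. Week 40 had features 151 (0.693) and 5708 (0.652) as the highest and features 7555 (-0.359) and 11918 (-0.300) as the lowest. Each of these passed the test at its week (limma, adjusted). Features 151 and 5708 had single arrays far from the rest, up to 1.76 for 151 in C3H on the high-fat diet, while the median of those 12 arrays was 0.0454. Feature 5708 reached 2, where the deposited values stop, in C57 on the high-fat diet, and 1.99 in C57 on chow.

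For some features the average does not stand for both strains. The test of the difference between the strains' diet effects passed in 81 features (0.382%; limma, adjusted), 34 of them positive (0.161%) as C57 minus C3H. Among the same-sign features it passed in 4 of the 178 higher and 2 of the 106 lower. Features 1212 and 6324 were 2 of these, with a difference of -0.442 ± 0.0782 and -0.512 ± 0.0926 (SE) between the strains. In features 17767 and 5037 the strains had opposite signs. Feature 5037 lay at -0.0242 to 0.303 on chow (median 0.0722) and at 0.00190 to 0.663 on the high-fat diet (median 0.400) in C57. In C3H it lay at 0.0471 to 0.392 on chow (median 0.266) and at -0.0533 to 0.384 on the high-fat diet (median 0.0956). The diet difference was 0.247 in C57 and -0.124 in C3H, and the average of 0.0614 did not pass (limma adjusted p = 0.130). Feature 17767 passed the averaged test with 0.352 in C57 and -0.0524 in C3H, and is 1 of 8 called features with opposite signs, the others being 1650, 6977, 8454, 11813, 15268, 18260 and 22001. The count of 81 was 18 to 321 when single arrays were left out, with 37 of the 48 arrays moving it by over 1.5 times, and 3 without the replicate number.

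**Figure D5:**
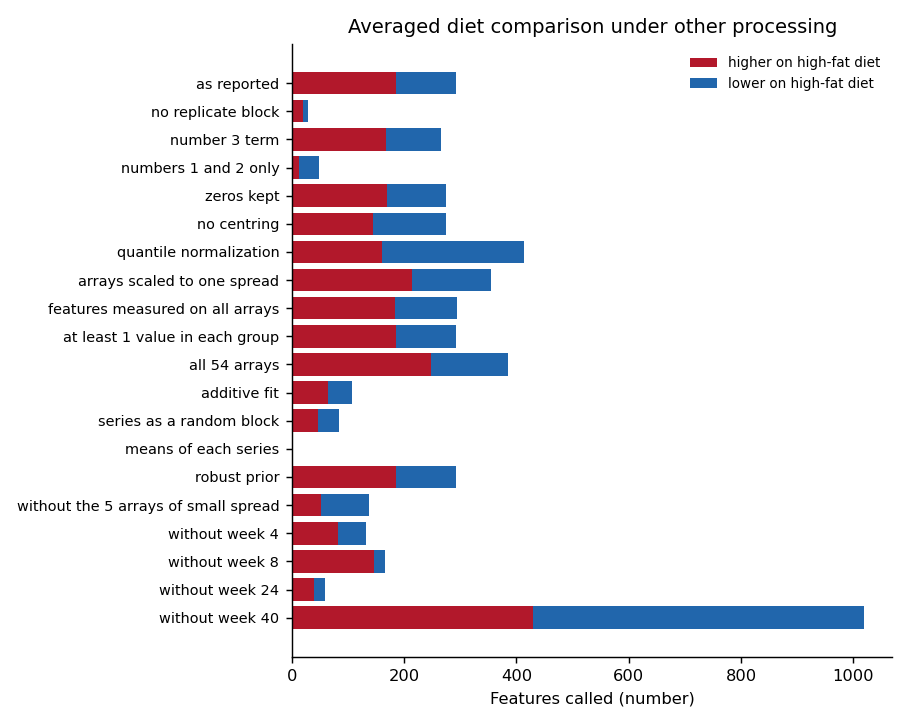
Number of features called in the averaged comparison (horizontal axis) as reported and under other processing, split into higher and lower. The count was 292 as reported, 29 without the replicate number, 84 when the series was a random block, 2 for series means and 1019 without week 40.

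The number of calls depended on how arrays of a series were treated. With the 12 series as a random block 84 features passed (46 higher and 38 lower), and when the 4 weeks of each series were averaged to 12 values, 2 passed: 6324, higher, and 5818, lower (limma adjusted p = 0.0140 and 0.0380). Quantile normalization called 160 higher and 254 lower features, and no centring 145 and 129, beside 185 and 107 as reported. With quantile normalization, scaling, no centring and the random block all applied in turn, 73 of the 284 passed in each (25.7%). Of these, 42 were higher and 31 lower, and 17 of the 24 named features were among them. Other settings were not part of this count. Of the 284, 28 passed without the replicate number, 118 without the 5 arrays of small spread, 39 with numbers 1 and 2 and 2 as series means. Leaving out 1 array moved the count by over 1.5 times in 2 cases, to 184 without C3H chow number 3 of week 4 and to 493 without C57 high-fat number 2 of week 40. Leaving out 1 series did so in 8 of 12 cases. Without a C3H series the count was 101 (chow number 3), 118 (chow number 1), 174 (high-fat number 2) and 916 (high-fat number 1). Without a C57 series it was 109 (high-fat number 1), 123 (chow number 3), 148 (chow number 2) and 544 (high-fat number 2).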

How the data were processed

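The authors' deposited table holds log ratios of aorta and embryo channels per feature, with log10 as the likely base only; base, direction, dyes, scanner, background correction and normalization were not given in the sources used here. The deposited values have medians near 0 on every array. Exact zeros (7058 values, 0.686%, 54 to 281 per array) were taken as not measured, and the median over the 20705 features with a value on all 48 arrays was subtracted from every array. Features with 2 measured values in each of 16 groups were tested (21179; 267 were left out). Signal over background cannot be assessed from ratios, so the number of arrays limits the precision.

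A linear model with the 16 groups and the replicate number (3 levels) was fitted by least squares, with the moderated, two-sided test of limma 3.58.1 in R 4.3.3 and Benjamini-Hochberg adjustment over 21179 features; calls have an adjusted p under 0.05. The fit was checked on simulated data with known changes. The replicate number stands in the model by the stated rule, although same-number pairs correlated over 0.1 in 21 of 24 pairs and not in every one; labels do not say what a number shares. Named are the 12 largest differences in each direction among same-sign features and, in other comparisons, the 2 largest in each direction among called features, for the F test by week 40 minus week 4. Gene and marker lists were not tested, as features could not be named. The comparison, the lists and the rules were chosen with earlier results of these data known. Alternatives changed the number term, zeros, centring, normalization, filter, model, block, prior, arrays, weeks or strains.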

Additional observations from a re-analysis of the deposited data

Results flagged for a closer look

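Results are listed here because the diet difference itself differed between strains or between weeks in a test of that difference (limma, adjusted p). No group had 4 or more arrays, so single outlying arrays were not tested for.

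Between the strains the diet difference differed in 81 features. Among the features described, the adjusted p was 0.00830 for feature 1212, 0.00906 for feature 6324 and 0.00906 for feature 17767. For feature 5037 it was 3.65e-06.

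Between the weeks it differed in 1720 features. Among features with the same sign in both strains, the adjusted p was 0.00793 for feature 11842, 0.0257 for feature 7103, 0.0464 for feature 11166, 0.0136 for feature 5818, 0.0423 for feature 19031 and 0.0194 for feature 17162. The adjusted p was 0.0126 for feature 17767, 0.0136 for feature 12418, 0.0289 for feature 583 and 0.0239 for feature 11677.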

How the results depend on the processing

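Directions of the 46 named results turned in 0 of 3640 values under other settings, and 596 values no longer passed. Of the 84 settings, 48 left out 1 array and 12 left out 1 series. The same-sign rule largely fixed the direction of the named averaged features in each strain alone. The 0 turns are thus no separate test. The averaged count of 292 stayed within 1.5 times with zeros kept (274), no centring (274), quantile normalization (414), scaling (354), other filters (293 and 294), all 54 arrays (385), a number 3 term (266) and a robust prior (292). Without the replicate block it was 29, and the other counts were 3 (strain interaction), 1 (weeks), and 2, 31, 1 and 8 at weeks 4, 8, 24 and 40. Numbers 1 and 2 gave 48, 1 for the interaction and 1 at week 24. Each number alone called 0, 0 and 13 features with limma (2108, 644 and 2948 at an unadjusted p under 0.05). The number 3 term gave 41 for the interaction. Quantile normalization gave 46 (weeks), 37 (week 4), 30 (week 24) and 56 (week 40). Scaling gave 35 (interaction), 38 (weeks), 1341 (week 8), 9 (week 24) and 74 (week 40). No centring and all 54 arrays gave 8 each at week 24, and all 54 arrays 134 for the interaction. The additive fit called 107, the random block 84 and 3 for the interaction, and series means 2 and 1. Without the 5 arrays of small spread the counts were 138, 146 (interaction), 1134 (weeks), 8 (week 24) and 896 (week 40). Of the 138 averaged calls, 52 were higher and 86 lower, beside 185 and 107 as reported. Leaving out week 4, 8, 24 or 40 gave 132, 165, 58 and 1019, and 11, 17 and 5 for the interaction without weeks 4, 8 and 24. C57 alone gave 37 and C3H alone 566. Leaving out 1 array or 1 series gave 101 to 916 for the averaged count, 3 to 1501 for the interaction, 24 to 2826 for the weeks, 7 to 32 at week 4, 373 to 3176 at week 8, 1 to 13 at week 24 and 194 to 2571 at week 40. The cause of these shifts was not tested.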

Other observations

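The week 0 arrays are titled as normal chow. On them the 178 higher features had a median ratio of 0.0712 and the 106 lower features one of -0.00799, against 0.00132 over all features. The absolute ratios were larger in both lists, at medians of 0.116 and 0.118, than over all features at 0.0902. After the groups and the replicate number were taken out, pairs of higher features correlated at a median of 0.149 and pairs of lower features at 0.155, beside 0.0258 for a higher with a lower feature. Pairs among 2071 features, taken at even steps of 10 from those measured on all arrays whether called or not, had a median of -0.00137 and a median absolute correlation of 0.187. Among the named averaged features the order was different. There 66 pairs of higher features had a median of 0.135 and 66 pairs of lower features one of 0.336. The 144 pairs of a higher with a lower feature had a median of 0.203. Their highest value was 0.799, for features 9938 and 9169, beside 0.894 and 0.827 within the higher and the lower features. All these correlations are over 48 arrays that share a reference, and the cause was not tested.

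The higher features were spread over the feature numbers, with 3.37% to 15.2% of them in each of 10 equal stretches of the tested features, and the lower features with 4.72% to 15.1%.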
